A study of Mus musculus with 12 samples.

Results

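The genes described are the D-type cyclins, the kinases that these cyclins activate, the inhibitors that hold the kinases back and the retinoblastoma gene, 10 of the 48623 genes measured. They are *Ccnd1*, *Ccnd2*, *Ccnd3*, *Cdk4*, *Cdk6*, *Cdkn1a*, *Cdkn1b*, *Cdkn2c*, *Cdkn2d* and *Rb1*. Their identifiers were chosen by gene symbol, each symbol matched 1 identifier, and all 10 passed the filter on low values. The family was picked because *Ccnd2* had already been seen to differ between the genotypes, so that difference is given as a description, without a test. The cells were primary microglia, the macrophages of the brain, grown from the cortex and hippocampus of C57BL/6J mice 1 to 3 days old. There were 4 groups of 3 libraries: WT untreated, WT with IL-4, KI untreated and KI with IL-4, where KI cells were homozygous for the *Trem2* R47H knock-in. IL-4, a cytokine that drives macrophages into an alternative, anti-inflammatory state, was given at 20 ng/ml for 48 h. Libraries carry the numbers T13, T33 and T43 in WT and T15, T22 and T32 in KI, and each number occurs once untreated and once with IL-4. Per the study, the WT mice were littermates of the KI mice and each group held 3 mice. Pups of such litters were grown in separate cultures and genotyped afterwards, so cultures may share a litter. The R47H allele of this line also alters splicing of *Trem2* and lowers its transcript.

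D-type cyclins link signals from outside a cell to its division. Growth factors raise them in the first gap phase, they bind CDK4 or CDK6, and the active kinases phosphorylate RB1, which then releases the E2F factors that switch on genes for DNA replication. The INK4 proteins p18 (from *Cdkn2c*) and p19 (from *Cdkn2d*) bind CDK4 and CDK6 and keep cyclins off them. The Cip/Kip proteins p21 (from *Cdkn1a*) and p27 (from *Cdkn1b*) bind whole cyclin-kinase complexes and act mainly on CDK2. Microglia renew themselves by slow division in the adult brain and divide readily in mixed glial culture, where astrocytes supply the growth factor CSF1. Of the D-type cyclins, cyclin D2 is the form best known from neural progenitors, the ovary and lymphocytes, cyclin D1 is used most widely, and cyclin D3 is prominent in blood cells.

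The values are TPM, transcript abundances that correct for gene length and sum to 1000000 per library, so levels can be set side by side between genes. TPM keeps no record of the reads counted, so the depth behind a value is unknown and the spread between libraries is the error given. *Trem2*, the altered gene, ranged from 1328 to 1886 TPM in the 3 WT libraries without IL-4 and from 325 to 769.9 TPM in the 3 KI libraries, and after IL-4 it was at 1190 to 1550.0 TPM in WT and 428 to 634 TPM in KI, with no overlap. The summed TPM of 15 microglial markers was 28203 to 29660 in WT and 12518 to 25176 in KI libraries without IL-4, and 5 of the 15 were lower in KI (limma, adjusted p below the threshold of 0.05). The 2 KI libraries numbered T15 stood apart: 12 astrocyte markers summed to 4828 TPM untreated and 3703 TPM with IL-4, against 168 to 699 TPM in the other 10 libraries. Among WT libraries the highest sums were those of T13 (699 TPM untreated and 622 TPM with IL-4). The library titles of T13 and T15 share a form that the other numbers do not have, and the labels do not say why. Results that rest on T15 are therefore given without it too, and without it 1 of the 15 microglial markers, *C1qb*, was past the threshold. The differences of the other 4 stayed close in size (-0.93 and -0.94 for *Aif1* with and without T15, -0.66 and -0.74 for *Fcrls*, -0.85 and -0.82 for *Itgam*, -0.83 and -0.68 for *Csf1r*), and all 15 markers were below 0 on the log2 scale both with and without T15. The WT library T43 with IL-4 stood apart in 7 fibroblast markers, which summed to 232 TPM against 8.03 to 80.3 TPM in the other 11 libraries. In bulk samples, fewer cells of a type and less RNA per cell cannot be told apart.

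**Figure D1:**
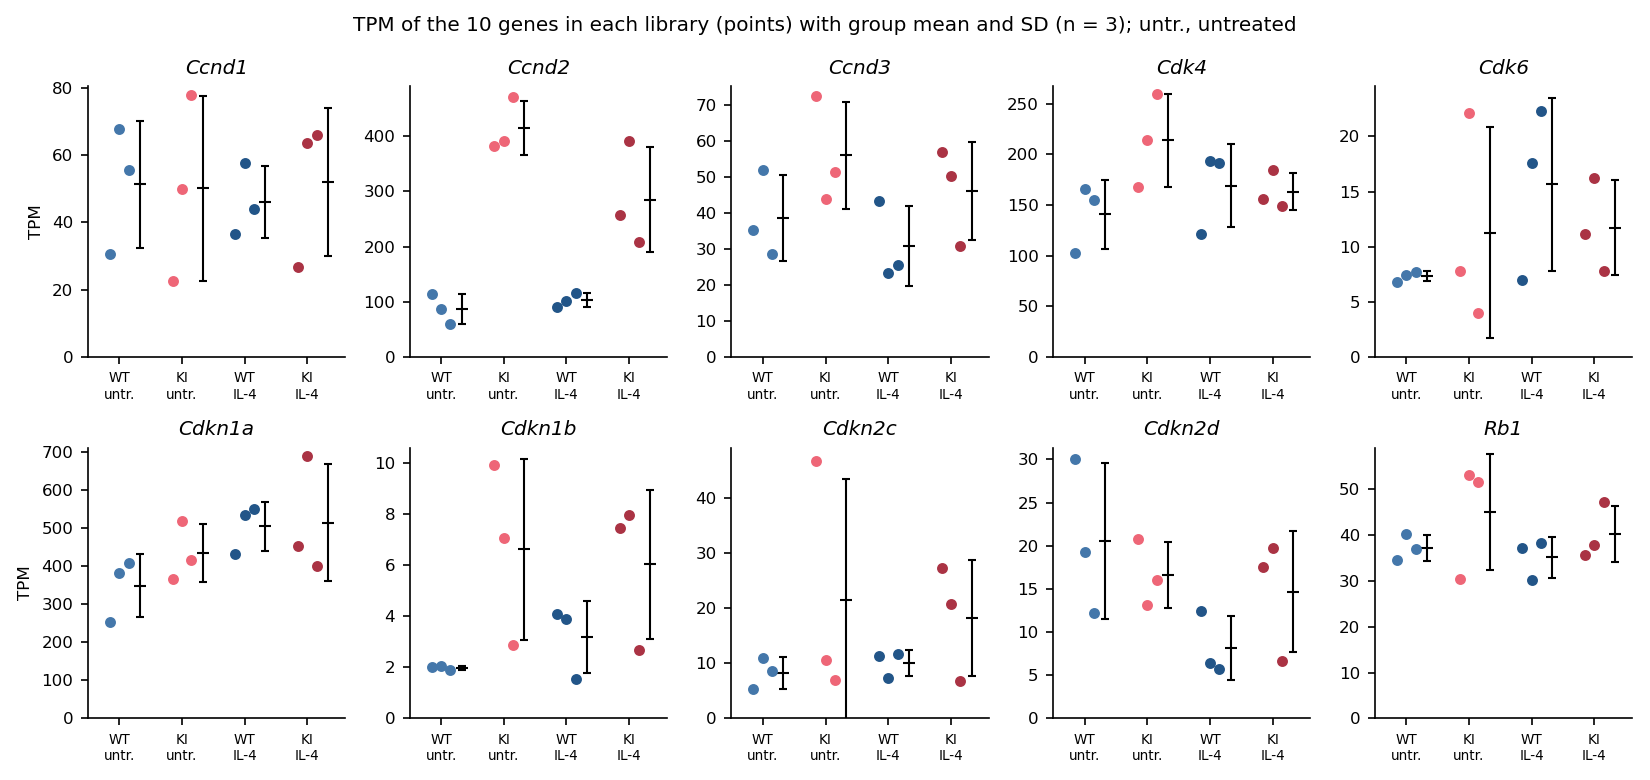
TPM (linear axes that start at 0) of each of the 10 genes, one panel per gene, with a point per library and the group mean with its SD (n = 3) beside the points; groups from left to right are WT untreated, KI untreated, WT with IL-4 and KI with IL-4. *Ccnd2* is the gene whose KI libraries lie above all WT libraries in both treatments, and the *Cdkn2c* panel shows the high T15 libraries (46.8 and 27.4 TPM).

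Ranked by mean TPM over the 12 libraries, *Cdkn1a* came first with 451 TPM, followed by *Ccnd2* with 222 and *Cdk4* with 172. *Ccnd1* (49.9), *Ccnd3* (42.9) and *Rb1* (39.4) formed the middle, and *Cdkn2d* (15), *Cdkn2c* (14.5), *Cdk6* (11.5) and *Cdkn1b* (4.45) were lowest. Some neighbours kept their order in all or nearly all libraries: *Cdk4* was above *Ccnd1* and *Rb1* above *Cdkn2d* in 12 of 12, and *Cdk6* above *Cdkn1b* in 11 of 12. Others did not separate: *Ccnd3* was above *Rb1* and *Cdkn2d* above *Cdkn2c* in 6 of 12 libraries each. *Ccnd2* was above *Cdk4* in 7 of 12, an order that went largely with genotype. In WT cells *Cdk4* ranked above *Ccnd2* in 2 of 3 libraries untreated and 3 of 3 with IL-4. In KI cells *Ccnd2* was above *Cdk4* in 3 of 3 in each treatment. *Cdkn1a* exceeded *Ccnd2* in 1 of 3 untreated KI libraries.

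Among the cyclins, *Ccnd2* (chr6:127125162-127152193 of GRCm38, minus strand) was higher in KI than in WT libraries in both treatments. Without IL-4, WT libraries T13, T33 and T43 held 114, 86.2 and 59.3 TPM, and KI libraries T15, T22 and T32 held 382, 391 and 471 TPM. Every KI library lay above every WT library, with means of 86.6 ± 27.5 TPM (SD, n = 3) and 415 ± 48.8 TPM. After IL-4 the WT libraries were at 90.4, 101 and 115 TPM and the KI libraries at 257, 391 and 208 TPM, again without overlap. On the log2(TPM + 1) scale KI exceeded WT by 2.29 ± 0.25 (SE) untreated, a 4.89-fold difference, and by 1.43 ± 0.25 with IL-4, a 2.69-fold difference. Averaged over the treatments the difference was 1.86 ± 0.18, and it was 1.91 without T15.

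*Ccnd1* (chr7:144929931-144939925, minus strand) encodes the cyclin that most cell types use. Untreated WT libraries held 30.7, 67.9 and 55.5 TPM and KI libraries 22.6, 50.0 and 77.8 TPM, and with IL-4 the values were 36.6, 57.8 and 44.0 TPM in WT and 26.6, 63.8 and 65.9 TPM in KI. The genotypes overlapped fully in both treatments. The averaged KI minus WT difference was -0.02 on the log2 scale (95% interval -0.69 to 0.66, adjusted p = 0.983, limma's F-test). Here and for the other genes a single difference is averaged over the other factor, while the adjusted p is that of the F-test, which takes the differences of both levels together. T13 was lowest among the WT libraries and T15 lowest among the KI libraries in both treatments, and the same numbers had the highest astrocyte marker sums of their genotype (622 to 699 TPM and 3703 to 4828 TPM). With the mean astrocyte marker level as a covariate, a fit added after the data were seen, the difference was 0.60 (adjusted p = 0.508), and without T15 it was 0.43 (adjusted p = 0.621).

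*Ccnd3* (chr17:47505051-47599691, plus strand), the D-type cyclin best known from the blood lineage, was at 35.3, 52.0 and 28.7 TPM in WT and 72.7, 44.0 and 51.3 TPM in KI libraries without IL-4. IL-4 libraries held 43.4, 23.3 and 25.6 TPM in WT and 56.9, 50.3 and 30.7 TPM in KI. KI means were the higher in both treatments, but the ranges overlapped. The averaged difference was 0.55 (95% interval 0.06 to 1.04, adjusted p = 0.393, limma), and without T15, whose untreated library was the highest of all, it was 0.37.

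Taken as a sum, D-type cyclin transcripts came to 177 ± 31.5 TPM in WT cells and 521 ± 68.6 TPM in KI cells without IL-4, and to 179 ± 7.75 and 383 ± 107 TPM with it (SD, n = 3 per group). *Ccnd2* made up 48.9% ± 12.6 of the sum in untreated WT and 79.7% ± 1.1 in untreated KI cells, with no overlap (41.3% to 63.4% against 78.5% to 80.6%). With IL-4 its share was 57.0% ± 4.8 in WT and 73.7% ± 4.8 in KI cells. The share of *Ccnd1* was 29.5% ± 11.2 in untreated WT and 9.34% ± 4.2 in untreated KI cells, while its TPM overlapped between them. These sums and shares contain *Ccnd2* and so describe the same difference again.

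**Figure D2:**
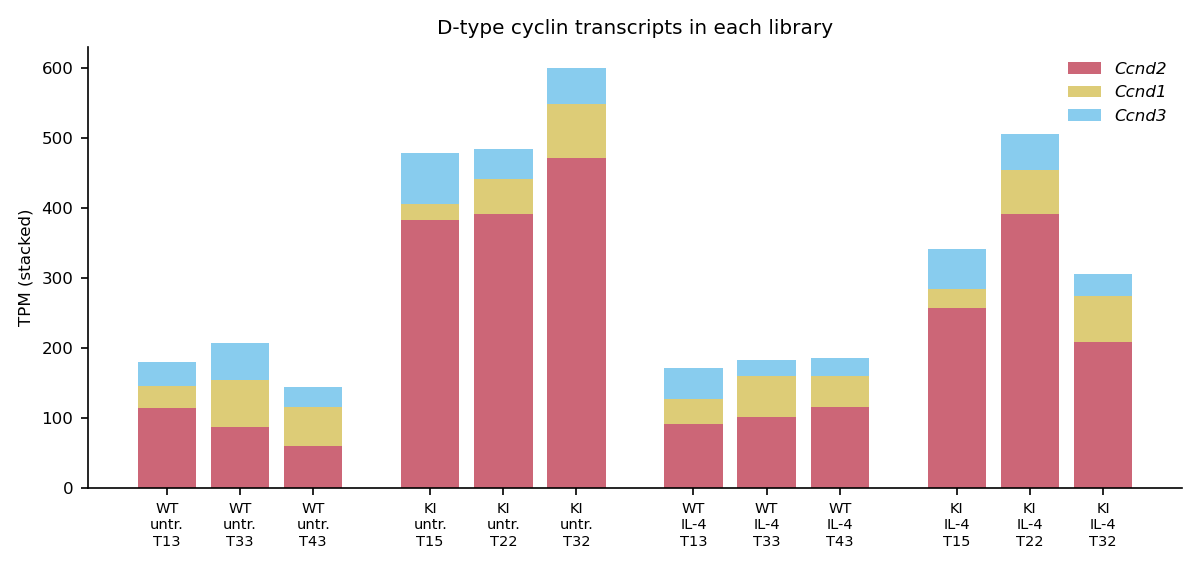
Stacked TPM (axis from 0) of *Ccnd2* (bottom), *Ccnd1* (middle) and *Ccnd3* (top) in each of the 12 libraries, grouped by genotype and treatment. The KI bars reach 305 to 600 TPM and the WT bars 144 to 206 TPM, and the bottom segment accounts for most of that gap.

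Of the kinases, *Cdk4* (chr10:127063534-127067920, plus strand) supplied 91.9% to 94.9% of the summed *Cdk4* and *Cdk6* TPM by group mean. Untreated, it was at 102, 166 and 155 TPM in WT and 168, 215 and 259 TPM in KI libraries, so the lowest KI library was just above the highest WT library. With IL-4 the values were 122, 194 and 192 TPM in WT and 156, 184 and 149 TPM in KI, and the genotypes overlapped. The difference was 0.61 ± 0.24 (SE) untreated and -0.02 ± 0.24 with IL-4, and *Cdk4* did not pass the test for genotype (adjusted p = 0.356, limma's F-test). Leaving out T13, the WT number with the lowest *Cdk4*, moved the averaged difference from 0.29 to 0.07. The exons of *Cdk4* share 641 of their 3249 bases with *Tspan31* on the other strand, which was itself at 123 to 191 TPM, and the library kit was not stated to keep the strand.

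*Cdk6* (chr5:3341485-3531008, plus strand), the partner kinase that is prominent in blood-forming cells, was low. WT libraries without IL-4 held 6.80, 7.46 and 7.70 TPM and KI libraries 7.77, 22.1 and 3.96 TPM, so that KI had both the highest and the lowest of the 6 values. With IL-4 it was at 7.0, 17.6 and 22.3 TPM in WT and 11.1, 16.3 and 7.76 TPM in KI. The averaged genotype difference was -0.02 (95% interval -0.85 to 0.82, adjusted p = 0.922, limma), an interval too wide to set a small difference apart from none.

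The INK4 inhibitors were both minor transcripts. *Cdkn2c* (chr4:109660876-109667189, minus strand), which encodes p18, was at 5.24, 10.9 and 8.60 TPM in WT and 46.8, 10.5 and 6.90 TPM in KI libraries without IL-4. With IL-4 it was at 11.3, 7.39 and 11.6 TPM in WT and 27.4, 20.7 and 6.71 TPM in KI. The highest value of each treatment was T15, while the other KI libraries lay within the WT range untreated and on either side of it with IL-4. The averaged difference of 0.74 ± 0.44 (adjusted p = 0.632, limma) was 0.17 without T15 and 0.19 with the astrocyte covariate. *Cdkn2d* (chr9:21288410-21291407, minus strand), which encodes p19 of the INK4 group, was at 30.1, 19.2 and 12.2 TPM in WT and 20.8, 13.1 and 16.0 TPM in KI libraries without IL-4. The libraries with IL-4 held 12.5, 6.35 and 5.72 TPM in WT and 17.6, 19.8 and 6.67 TPM in KI. WT had the higher mean untreated and KI the higher mean with IL-4, all within overlapping ranges (adjusted p for genotype = 0.653, limma).

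**Figure D3:**
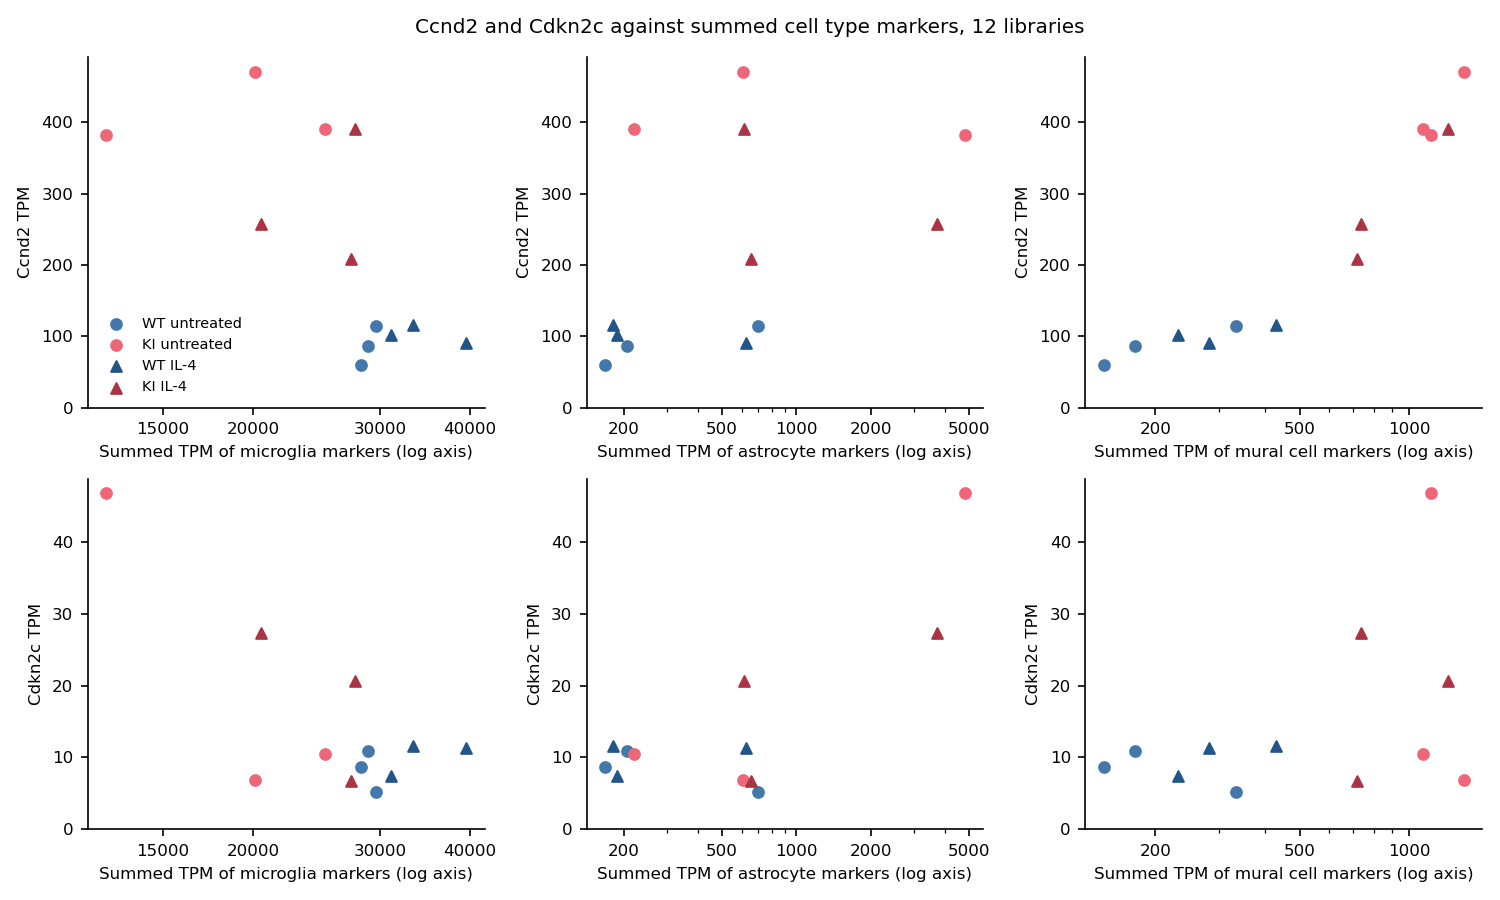
TPM of *Ccnd2* (top row) and *Cdkn2c* (bottom row) on a linear axis from 0 against the summed TPM of microglial, astrocyte and mural cell markers on log axes, for the 12 libraries (circles untreated, triangles IL-4, blue WT, red KI). The highest *Cdkn2c* values, 46.8 and 27.4 TPM, belong to the T15 libraries with astrocyte sums of 4828 and 3703 TPM. The KI libraries, in which *Ccnd2* is high, have astrocyte sums of 221 TPM (T22 untreated) and of 609 to 4828 TPM (the others). Their mural sums are 721 TPM and more, and those of WT are at most 429 TPM, so genotype and mural sum cannot be told apart.

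*Cdkn1a* (chr17:29090976-29100727, plus strand), which encodes p21, the p53-induced inhibitor, was the most abundant member and made up 90.4% to 95.8% of the TPM of the 4 inhibitors by group mean. Its upstream sequences are printed because p53 acts at this gene and the p53 targets are counted below. RefSeq (GRCm38.p6) gives 2 starts, and the 250 bases before each are shown 5′ to 3′ on the plus strand. Capitals mark a match to CATGNNNNNNCATG, the core letters of a p53 site with 6 open bases between them, which reads the same on both strands.

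Upstream of the first start, chr17:29090729-29090978: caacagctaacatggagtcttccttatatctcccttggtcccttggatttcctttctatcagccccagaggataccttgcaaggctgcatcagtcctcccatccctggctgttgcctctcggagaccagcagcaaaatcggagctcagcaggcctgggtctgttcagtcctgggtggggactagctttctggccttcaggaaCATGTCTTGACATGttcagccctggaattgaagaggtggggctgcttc

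Upstream of the second start, chr17:29093519-29093768: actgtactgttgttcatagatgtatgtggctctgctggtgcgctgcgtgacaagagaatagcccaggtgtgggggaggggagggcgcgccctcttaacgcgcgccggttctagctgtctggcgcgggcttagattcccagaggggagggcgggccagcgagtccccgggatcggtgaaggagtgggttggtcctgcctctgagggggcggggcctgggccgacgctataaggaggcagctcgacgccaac

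The match CATGTCTTGACATG lies at chr17:29090931-29090944 and begins 48 bases before the first start, and these letters do not occur in the second window. The motif was picked after the sequence had been seen. In the table of 32851 promoters, which reach 250 bases before to 50 after a start, 234 (0.712%) hold it. Of the 10 promoters listed for 7 of the members it is in 1. *Ccnd1*, *Ccnd2* and *Rb1* are not in that table. A match is a description of letters and not a measured binding site, and TPM per gene does not tell the starts apart.

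Untreated, *Cdkn1a* was at 254, 384 and 408 TPM in WT and 368, 520.0 and 418 TPM in KI libraries, and with IL-4 at 432, 535 and 549.8 TPM in WT and 454, 691 and 401 TPM in KI. The genotypes overlapped in both treatments, with an averaged difference of 0.17 (95% interval -0.18 to 0.52, adjusted p = 0.713, limma). Set against this inhibitor, the sum of D-type cyclins was 0.533 ± 0.179 of the *Cdkn1a* TPM for WT and 1.22 ± 0.26 for KI cells without IL-4, and 0.358 ± 0.033 and 0.747 ± 0.015 with IL-4 (SD, n = 3). No KI library overlapped with a WT library of the same treatment in this ratio, which again contains *Ccnd2*.

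*Cdkn1b* (chr6:134920401-134925513, plus strand) encodes p27, which rises in cells at rest and is controlled largely through its breakdown. Its transcript was the lowest of the 10: 1.99, 2.05 and 1.89 TPM in WT and 9.94, 7.06 and 2.87 TPM in KI libraries without IL-4. All 3 KI libraries lay above the WT libraries, which lay between 1.89 and 2.05 TPM. With IL-4 it was at 4.09, 3.88 and 1.55 TPM in WT and 7.45, 7.97 and 2.69 TPM in KI, and the genotypes overlapped. The averaged difference was 0.97 ± 0.39 (95% interval 0.14 to 1.8), and *Cdkn1b* did not pass the test (adjusted p = 0.348, limma). It was 0.72 without T15 and 0.71 with the astrocyte covariate.

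*Rb1* (chr14:73183673-73325822, minus strand), the substrate of the kinases, had the narrowest relative range of the 10 (30.1 to 53.1 TPM). Without IL-4, WT libraries held 34.7, 40.3 and 36.9 TPM and KI libraries 30.3, 53.1 and 51.7 TPM. With IL-4 the values were 37.1, 30.1 and 38.2 TPM in WT and 35.7, 37.9 and 47.3 TPM in KI. The genotypes overlapped in both treatments (difference 0.21, 95% interval -0.16 to 0.58, adjusted p = 0.794, limma). Its exons share bases with *Lpar6* and *Rcbtb2* on the other strand, *Ccnd1* with *LTO1* and *Ccnd3* with *Bysl*, so reads of such stretches cannot be assigned by strand. *Ccnd2* shares 368 and 372 of 9409 exonic bases with the antisense genes *9330179D12Rik* and *Gm43126*, which reached 1.85 and 6.98 TPM.

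Over the 10 members, 1 was past the threshold for genotype, against 185 of 11204 genes tested (1.65%), and that member was *Ccnd2*, on which the family was picked. The other 9 had adjusted p-values from 0.348 to 0.983 by the F-test, and none had an unadjusted F-test p under 0.05, compared with 1799 of all genes. By the averaged difference alone 2 of the 9, *Ccnd3* (unadjusted p = 0.0295, adjusted p = 0.177) and *Cdkn1b* (0.025 and 0.161), were under 0.05 before adjustment, as were 2384 of all genes (21.3%). Their differences ran from -0.02 to 0.97. The median difference was 0.27 over the 10 members and 0.13 over all genes tested, and quantile normalization moved the median of all genes to -0.06 and *Ccnd2* to 1.79. No member changed direction for genotype under quantile normalization or median-ratio scaling. Apart from *Ccnd2*, every untreated KI library was above every WT library for 2 of 9 members (*Cdk4* and *Cdkn1b*), against 13.6% of all genes tested, and with IL-4 for 0 of 9, against 12.7%. No member had every KI library below every WT library in either treatment, which 4.55% of all genes had untreated and 5.79% with IL-4.

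**Figure D4:**
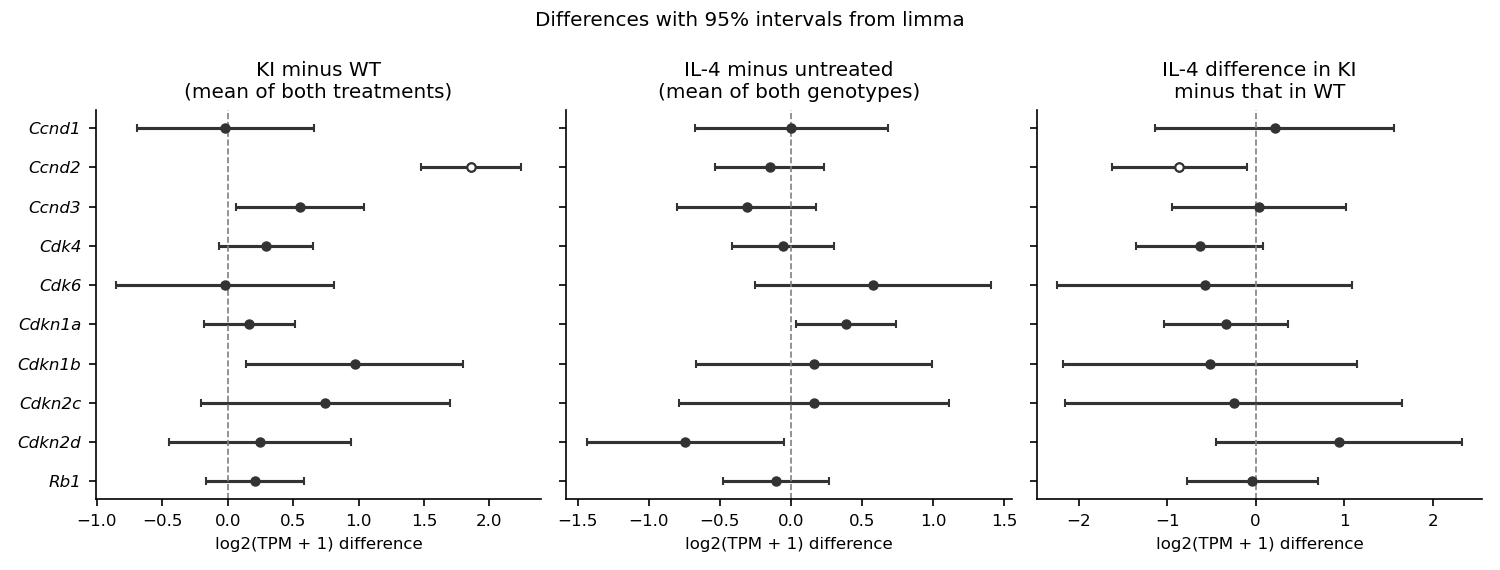
Differences on the log2(TPM + 1) scale with 95% intervals from limma for the 10 genes: KI minus WT (left), IL-4 minus untreated (middle) and the IL-4 difference in KI minus that in WT (right). The open *Ccnd2* symbols at 1.86 and -0.86 are descriptions without a test, and the intervals are not adjusted for the number of genes. No other gene passed the adjusted threshold in any panel, and *Ccnd2* did not pass it in the middle or right panel.

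No member passed the test for IL-4: 0 of 10, against 100 of 11204 genes tested (0.893%). Adjusted p-values ran from 0.695 to 1.00 (limma's F-test), and none of the 10 had an unadjusted F-test p under 0.05, which 814 of all genes had. By the averaged difference alone *Cdkn1a* (unadjusted p = 0.0325, adjusted p = 0.442) and *Cdkn2d* (0.0375 and 0.480) were under 0.05 before adjustment, as were 1038 of all genes (9.26%). *Cdkn1a* was the higher with IL-4 in 5 of 6 library numbers, all 3 of WT and 2 of 3 of KI, by 0.39 ± 0.16 on average (1.31-fold, adjusted p = 0.727, and 0.0749 with the library number as a block). *Cdkn2d* was lower with IL-4 in 5 of 6, with -1.46, -1.21 and -0.97 on the log2 scale in T33, T13 and T43 of WT and -1.15 and -0.23 in T32 and T15 of KI, and higher in T22 of KI (0.56). Its average of -0.74 ± 0.32 did not pass the test (adjusted p = 0.695). *Cdk6* was higher in 5 of 6 with an average of 0.58 ± 0.39 (adjusted p = 0.953). *Ccnd1*, at 0.00 ± 0.32, and *Rb1*, at -0.11 ± 0.17, were near 0.

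Whether the response to IL-4 differed between the genotypes was asked with the interaction term. No member and no gene of the 11204 (0%) passed the adjusted threshold in limma, while 357 genes had an unadjusted p under 0.05. Among the members that count was 1, *Ccnd2*, whose interaction entered the F-test by which it had been noticed. Its IL-4 minus untreated difference was 0.28 ± 0.25 in WT and -0.58 ± 0.25 in KI cells, an interaction of -0.86 ± 0.36, which was -0.57 without T32 and -0.53 without T43. Among the KI numbers the difference was -1.17 in T32, -0.57 in T15 and 0.00 in T22, and among the WT numbers it was -0.33 in T13, 0.23 in T33 and 0.95 in T43, so both genotypes were spread widely. T43 is the number whose IL-4 library was high in fibroblast markers, and the part of these in the interaction was not tested. *Cdk4* had the next smallest interaction p (0.0807, adjusted p = 1.00): its IL-4 minus untreated difference was 0.26 ± 0.24 in WT and -0.37 ± 0.24 in KI cells.

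**Figure D5:**
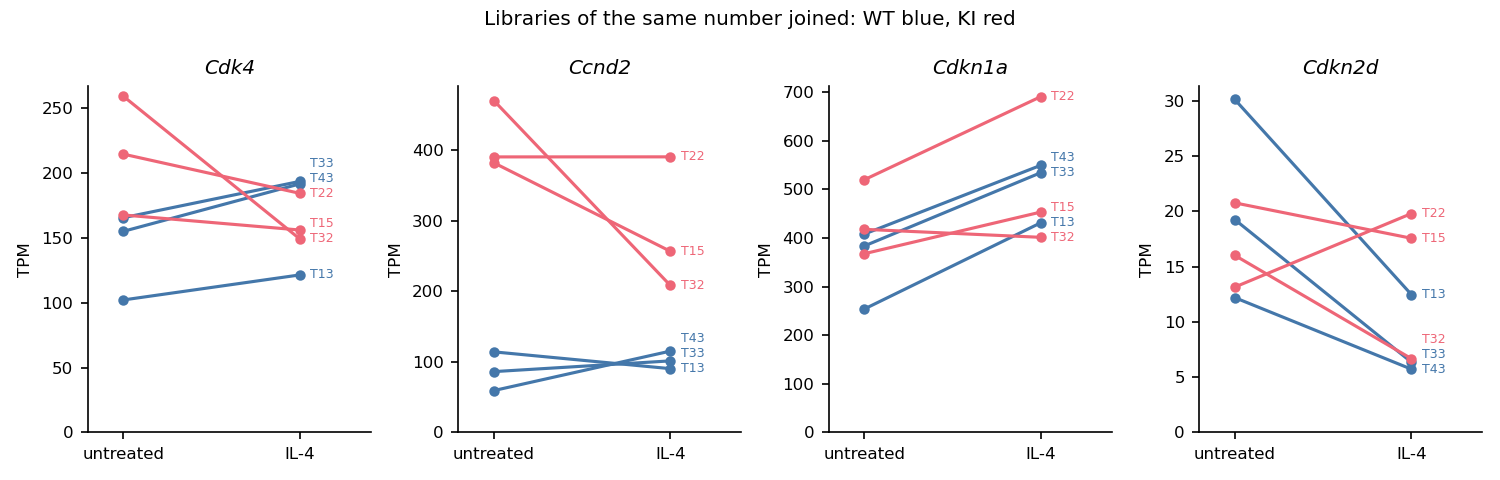
TPM (axes from 0) of *Cdk4*, *Ccnd2*, *Cdkn1a* and *Cdkn2d* untreated and with IL-4, with a line joining the libraries of the same number (WT blue, KI red). The *Cdk4* value is higher with IL-4 in 3 of 3 WT numbers and lower in 3 of 3 KI numbers, *Cdkn1a* is higher in 5 of 6 and *Cdkn2d* lower in 5 of 6, none of them past the test. The shares of all genes with such splits were not counted.

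The rest of the pathway was read from 8 lists of 95 genes, 75 of which passed the filter. For genotype 1 of the 75 passed the test, higher in KI, a share near the 1.65% of all genes tested. For IL-4 none did, against 0.893% of all genes, nor for the interaction, against 0%. The gene called for genotype was *Phlda3*, a p53 target that restrains AKT. It was at 43.6, 73.1 and 44.5 TPM in WT and 150.3, 125 and 146 TPM in KI libraries without IL-4, and with IL-4 at 52.3, 80.1 and 64.6 TPM in WT and 141, 157 and 66.5 TPM in KI. The untreated groups were far apart, whereas T32 with IL-4 lay among the WT libraries. The averaged difference was 1.11 ± 0.21 (adjusted p = 0.0375, limma), and the call was lost in 10 of 17 other settings, among them leaving out T13, T15, T22, T33 or T43 (adjusted p = 0.0616 to 0.249). Of the 11 p53 targets tested the other 10 did not pass the F-test. Tested by the averaged genotype difference alone, an alternative that called 575 of 11204 genes (5.13%), *Trp53inp1*, another p53 target, passed too (0.92, adjusted p = 0.0345, against 0.106 by the F-test). For IL-4 minus untreated the smallest p-values were those of *Plk2* (0.78 ± 0.29, adjusted p = 0.638) and *Ccng1*, which encodes cyclin G1 (0.28 ± 0.18, adjusted p = 0.886).

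Of the other CDK inhibitors, *Cdkn2b*, the INK4 gene for p15, was at 12.5, 18.8 and 9.59 TPM in WT and 41.2, 27.3 and 28.2 TPM in KI libraries without IL-4. With IL-4 it was at 9.93, 9.41 and 10.1 TPM in WT and 17.6, 28.6 and 10.5 TPM in KI. KI libraries were above WT libraries in both treatments, narrowly for T32 with IL-4, but the gene did not pass the F-test (adjusted p = 0.126, limma). The averaged difference alone, 0.99 ± 0.26, did pass (adjusted p = 0.0454). The IL-4 minus untreated difference of *Cdkn2b* was -0.60 ± 0.26 (adjusted p = 0.786 by the F-test). *Cdkn2a*, which gives rise to p16 and ARF, was at 0.745 to 5.55 TPM with no call for genotype (0.04 ± 0.44, adjusted p = 0.896) or IL-4 (-0.12 ± 0.44, adjusted p = 1.00). *Cdkn1c*, for p57, was below the filter and listed at 0 in 5 of 12 libraries, with 3.28 TPM as its highest value.

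No gene on the lists downstream of RB1 and E2F passed the test for genotype or IL-4. Of 15 replication genes tested none was called, the nearest for genotype being *Rfc4*, a clamp loader subunit (adjusted p = 0.194), and *Uhrf1* (-1.26 ± 0.50, adjusted p = 0.322). The *Rfc4* differences had opposite signs: KI minus WT was 1.05 ± 0.38 untreated and -0.72 ± 0.38 with IL-4, and IL-4 minus untreated was 1.31 ± 0.38 in WT and -0.47 ± 0.38 in KI cells (adjusted p = 0.332 for IL-4). Its interaction of -1.78 ± 0.54 did not pass (adjusted p = 1.00, unadjusted p = 0.00561). *Tk1*, for thymidine kinase, gave 1.13 ± 0.33 for IL-4 minus untreated (adjusted p = 0.380). Of 7 mitosis genes tested none was called. *Cdc20*, an activator of the anaphase-promoting complex, gave 1.29 ± 0.41 for genotype (adjusted p = 0.160) and 0.68 ± 0.41 for IL-4 (adjusted p = 0.788). The mitotic kinase gene *Aurka* differed between KI and WT by 0.72 untreated and -1.13 with IL-4 (adjusted p = 0.576), and its averaged IL-4 difference was -0.61 ± 0.51 (adjusted p = 0.872). *Mki67*, the proliferation marker, was at 0.0735 to 2.59 TPM over the 12 libraries, below the filter. The later cyclins and kinases, 10 of 10 tested, gave no call, with *Cdk7* at 0.35 ± 0.19 for genotype (adjusted p = 0.353) and -0.02 ± 0.19 for IL-4 (adjusted p = 0.945). *Cdk1*, the mitotic kinase, gave 0.41 ± 0.22 (adjusted p = 0.568) and 0.75 ± 0.22 (adjusted p = 0.402). For pocket proteins and E2F factors, 9 of 12 tested, *E2f6* gave 0.59 ± 0.22 (adjusted p = 0.291) and *Tfdp1* 0.26 ± 0.15 (adjusted p = 0.629) for genotype, and *Tfdp2* gave -1.18 ± 0.49 (adjusted p = 0.778) and *E2f6* 0.27 ± 0.22 (adjusted p = 0.975) for IL-4 minus untreated. The median genotype difference was -0.10 for the replication genes, 0.00 for the mitosis genes and -0.22 for pocket proteins and E2F factors, beside 0.13 over all genes. It was 0.10 for the later cyclins and kinases and 0.10 for the other G1 and atypical cyclins and kinases. For p53 targets it was 0.34, for regulators of D-type cyclins and p27 0.39 and for the 2 other CDK inhibitors tested 0.52.

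Upstream regulators of D-type cyclins and p27, 13 of 15 tested, gave no call either. The immediate early genes *Jun* (0.76 ± 0.23, adjusted p = 0.171) and *Egr1* (1.68 ± 0.51, adjusted p = 0.196) had the smallest p-values for genotype. *Myc*, a transcription factor that raises *Ccnd2* and *Cdk4* in other cells, was at 10.9, 51.5 and 28.6 TPM in WT and 28.4, 36.5 and 33.9 TPM in KI libraries without IL-4. Its IL-4 libraries held 62.9, 88.5 and 69.8 TPM in WT and 45.9, 81.8 and 43.3 TPM in KI. It was higher with IL-4 in 6 of 6 library numbers, by 1.10 ± 0.30, without passing the test (adjusted p = 0.266, limma), and its averaged genotype difference was -0.03 ± 0.30. *Fos* came next for IL-4 (-0.76 ± 0.31, adjusted p = 0.609). Of 8 other G1 and atypical cyclins and kinases none was called, with *Cdk14* at -0.56 ± 0.25 (adjusted p = 0.422) and *Cdk16* at 0.66 ± 0.30 (adjusted p = 0.465) for genotype, and *Cdk14* at -0.65 ± 0.25 (adjusted p = 0.701) and *Ccng2* at -0.49 ± 0.20 (adjusted p = 0.741) for IL-4.

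Markers of other cells differed with genotype beside *Ccnd2*. The 8 mural cell markers, genes of the contractile cells of vessel walls, summed to 144 to 334 TPM in WT and 1094 to 1417 TPM in KI libraries without IL-4, and to 231 to 429 and 721 to 1284 TPM with IL-4. The 3 of the 8 that passed the filter, *Acta2*, *Tagln* and *Cnn1*, were all higher in KI (2.11, 1.93 and 1.93 on the log2 scale, adjusted p = 0.00296 to 0.0305, limma). Without T15 they differed by 2.33, 1.82 and 2.10, and *Cnn1* lost its call (adjusted p = 0.0635). Of the defining mural genes *Kcnj8* was listed at 0 in 12 of 12 libraries, *Des* in 10, *Rgs5* in 7 and *Myh11* in 6, with at most 5.9e-05 TPM for *Myh11*. *Pdgfrb*, the PDGF receptor of pericytes, was at 0.045, 0.10 and 0 TPM in WT and 5.90, 0.20 and 2.65 TPM in KI libraries without IL-4, and 1.45, 0.24 and 2.78 TPM in WT and 9.59, 2.58 and 4.14 TPM in KI with it. Its untreated groups did not overlap and those with IL-4 did, and it was below the filter. The 10 astrocyte markers tested, of 12, had a median KI minus WT difference of 1.57, which was 0.69 without T15. None passed the F-test. By the averaged difference alone *Slc1a3* (2.01, adjusted p = 0.0262) and *Sox9* (2.36, adjusted p = 0.0318) were past the threshold, and without T15 neither was (1.37 and 1.69, adjusted p = 0.0755 and 0.119). The 7 oligodendrocyte lineage markers tested had a median of 0.27, or 0.08 without T15, with 5 above 0 and 2 below. *Olig1* passed the F-test (2.69 ± 0.52, adjusted p = 0.0438) and *Olig2* the averaged test (2.02, adjusted p = 0.0239), while *Cspg4* was at -1.50 and *Mag* at -0.13 without a call. Without T15 *Olig1* (2.11, adjusted p = 0.146) and *Olig2* (1.78, adjusted p = 0.110) were no longer past the threshold. Of 2 neuronal markers *Stmn2* passed the averaged test (1.42, adjusted p = 0.0448) but not without T15 (1.66, adjusted p = 0.0663). None of the 3 fibroblast and 2 endothelial markers tested passed either test for genotype. With IL-4 the endothelial marker *Flt1* (1.96 ± 0.20, adjusted p = 0.00056) and the microglial marker *C1qa* (0.79 ± 0.15, adjusted p = 0.0391) rose and the microglial *Cx3cr1* fell (-1.16 ± 0.21, adjusted p = 0.042). Of the other endothelial markers *Cldn5* and *Tek* were listed at 0 in 12 of 12 libraries, *Cdh5* in 10 and *Kdr* in 6. The *Ccnd2* difference was 1.91 without T15 and 1.86 with the astrocyte covariate, against 1.86 with all libraries. The part of the astrocyte or the mural markers in the *Ccnd2* difference was not tested.

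By the likeness of log2(TPM + 1) over the 12 libraries, the genes nearest to *Ccnd2* were *S100a11* (Pearson r = 0.982), *Hbegf* (0.975) and *Acta2* (0.971). Those nearest to *Cdk4* were *Tpm4* (0.922), *Cxcl2* (0.873) and *Pmepa1* (0.872), and those nearest to *Ccnd1* were *Mical1*, *Cherp* and *Ctsb* (0.894 to 0.903). *Ccnd3* lay closest to *Arhgap5* (0.929), *Cdk6* to *Ptbp1* (0.920), *Cdkn1a* to *Tmed7* (0.891), *Cdkn1b* to *Fopnl* (0.917), *Cdkn2c* to *Prdx3* (0.952), *Cdkn2d* to *Romo1* (0.954) and *Rb1* to *Sart1* (0.862). No member was among the 3 nearest genes of another. These correlations were picked as the highest of 11204 genes over libraries that share genotype and treatment, and they carry no test.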

How the data were processed

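Gene symbols and coordinates were taken from the GRCm38 annotation (GENCODE vM21). Per the labels and the study's methods, the authors used Trim Galore for trimming, Salmon with ENSEMBL GRCm38 for quantification and tximport for gene values (versions not given in the sources used here), and deposited TPM per gene for 12 libraries. Since TPM are not counts, limma 3.58.1 (R 4.3.3) was applied to log2(TPM + 1) for the 11204 genes with a mean above 1.5, with eBayes and a variance trend. A difference of low genes is understated on this scale. Genotype was tested by an F-test of the KI minus WT differences of both treatments, IL-4 likewise, and the interaction by a moderated test, with Benjamini-Hochberg adjustment over all genes tested and a threshold of 0.05. Intervals are 95% and unadjusted. The fit was tested on simulated data. The study counts 3 mice per genotype and condition, with pups of knock-in litters cultured separately. No source used here says that libraries of the same number come from the same mouse. Alternatives were another pseudocount (0.1), filter (none, or 3) or scaling (by quantiles or by median ratios), eBayes without the trend, a replicate block, single contrasts and leaving out each number. Genes outside the family were named by rule: for each pathway list and for genotype and IL-4 apart, those past the threshold, or the 2 with the smallest p where none passed, and always *Cdkn1c*, *Cdkn2a*, *Cdkn2b*, *Mki67* and *Myc*. *Trp53inp1* and the markers were named after their values were seen. The members and lists were chosen with earlier results of these data known.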

Additional observations from a re-analysis of the deposited data

Results flagged for a closer look

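The IL-4 difference of *Cdk4* had opposite signs in the genotypes. Among the members it was flagged by a rule on these signs alone, and the share of all genes with such a split was not counted. The difference between IL-4 and untreated libraries of the same number was 0.25, 0.22 and 0.30 on the log2 scale in WT T13, T33 and T43, and -0.10, -0.22 and -0.79 in KI T15, T22 and T32. The test of the difference itself gave an interaction of -0.63 ± 0.33 (95% interval -1.35 to 0.09), with an adjusted p of 1.00 in limma's fit across all genes, so it did not pass. Leaving out each number in turn gave -0.76 to -0.42, the smallest without T32.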

How the results depend on the processing

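None of the 9 members other than *Ccnd2* passed for genotype, and none of the 10 for IL-4 or the interaction, in any setting tried. With *Ccnd2*, on which the family was picked and from whose call nothing is read, the genotype count was 1, also with each number left out (1 to 1, and 0 to 0 for the others), and 0 with IL-4 alone, where *Ccnd2* was 1.43. Libraries of a number deviated from their group means with r = 0.340 (T13), 0.378 (T15), 0.121 (T22), 0.0792 (T32), 0.104 (T33) and 0.104 (T43), and T22 correlated more with another number (0.188). For the others the best correlation with another number was lower than their own: -0.175 (T13), -0.142 (T15), 0.0299 (T32), 0.0787 (T33) and 0.0769 (T43). Since T32 was below 0.1, a chosen cutoff, the numbers were not taken as pairs. The main fit thus treats all libraries as independent, and its errors would be off if libraries of a number share a culture. With the replicate block the members past the threshold were 1, 0 and 0, adjusted p-values of the members for IL-4 ran from 0.0749 (*Cdkn1a*) to 0.967, and over all genes the calls went from 185 to 77 for genotype and from 100 to 240 for IL-4. With no filter 16 genes were called for genotype and 4 for the interaction, and with no variance trend 26 for genotype and 50 for IL-4. No filter left 61 for IL-4, the astrocyte covariate gave 57 and 189, and leaving out each number gave 3 (T33) to 191 (T13) for genotype and 46 (T43) to 143 (T15) for IL-4.

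Of 477 single values of the members, 436 kept their direction and side of the threshold, 1 fell below it (*Ccnd2* with IL-4 alone) and 40 changed sign, none of them past the threshold in either form. For KI minus WT these were *Ccnd1* (astrocyte covariate 0.60, IL-4 alone 0.089, numbers left out -0.33 to 0.43), *Cdk4* (IL-4 alone -0.024), *Cdk6* (covariate 0.39, untreated alone 0.27, numbers left out -0.44 to 0.36), *Cdkn1a* (IL-4 alone -0.0037, numbers left out -0.018 to 0.26) and *Cdkn2d* (covariate -0.15, untreated alone -0.22, numbers left out -0.0014 to 0.56). For IL-4 they were *Ccnd1* (quantile normalization -0.034, median-ratio scaling -0.047, WT alone -0.10, numbers left out -0.084 to 0.091), *Ccnd2* (WT alone 0.28, numbers left out -0.32 to 0.0042), *Cdk4* (WT alone 0.26, numbers left out -0.12 to 0.049), *Cdkn1b* (KI alone -0.10) and *Cdkn2c* (numbers left out -0.052 to 0.37). For the interaction they were *Ccnd3* (covariate -0.025, numbers left out -0.36 to 0.35), *Cdkn2c* (numbers left out -0.68 to 0.15) and *Rb1* (quantile normalization 0.033, covariate 0.014, numbers left out -0.21 to 0.14). The causes were not tested. *Phlda3* lost its call in 10 of 17 settings (adjusted p up to 0.395, difference 0.81 to 1.41). With 3 libraries a group and unknown depth, small differences of low genes such as *Cdk6* and *Cdkn1b* cannot be set apart from none.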
